A study of Mus musculus with 10 samples.

Results

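The genes of the elastic fibre were followed in the left ventricle of mice after transverse aortic banding (TAB), a surgical narrowing of the aortic arch that puts the heart under pressure overload, and after a sham operation. The members were chosen by gene symbol and are elastin (Eln), the fibrillins Fbn1 and Fbn2, the fibulins Fbln1, Fbln2 and Fbln5, the microfibril-associated proteins Mfap2, Mfap4 and Mfap5, and Emilin1. These 10 genes, of the 19942 symbols on the array, were measured by 11 of its 26423 probes, because Fbln5 has 2 probes. All mice were male C57BL/6J animals operated on under isoflurane at 8 weeks of age, and the labels name no engineered allele and no drug in either group. One left ventricle RNA sample per operation was taken at 5 time points, which were days 3, 5, 7, 14 and, last, 28, and this gives 5 TAB and 5 sham samples. How many mice a sample held is not stated, so that the spread between mice cannot be given. In the fits below with a block for each day, p-values measure how the daily differences between TAB and sham vary. That variation mixes change over the days with variation between these samples. One TAB sample carries a condition label of 15 days beside a title of 14 days and was taken as day 14.

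Elastic fibres give tissues their recoil. They consist of a core of cross-linked elastin laid down on a scaffold of microfibrils, which are polymers of fibrillins decorated with microfibril-associated proteins. Fibulins and emilins lie at the interface of core and scaffold, lysyl oxidases cross-link the elastin, and fibrillin microfibrils also hold the latent complexes of TGF-beta, a cytokine that drives matrix synthesis. In the heart, fibroblasts and the smooth muscle cells of vessels are known to make these proteins.

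Levels are given as normalized intensity in array units, which can be compared between samples for one probe but not between probes. A difference is given as the log2 ratio of TAB over the sham sample of the same day, and its mean over the 5 days was tested with limma, with a block for each day and p-values adjusted by Benjamini-Hochberg over the 19976 probes that passed the filter on low values. A probe is described as called when its adjusted p was under 0.05. All 11 member probes passed the filter, and 8 of them were found by the image software on all 10 arrays. Raw array medians ranged from 34 to 57, and 40.2% to 47.3% of spots per array were not found. The precision of each value is limited by the number of arrays.

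Most elastic fibre genes were higher in TAB, and Mfap5 and Mfap4 had the largest mean log2 differences. Mfap5 was 10.2-fold higher on average, Mfap4 6.77-fold, Fbn1 4.24-fold, Eln 3.72-fold, Fbln2 2.53-fold and the brighter Fbln5 probe 1.94-fold. Mfap2 was higher as well, at 4.36-fold, but its spot was found on only 1 of the 5 sham arrays, and with 50 units added to each intensity its mean log2 difference fell from 2.12 to 0.99, below those of Fbn1, Eln and Fbln2. These 7 of the 11 member probes, 1 for each of 7 genes, were called higher and 0 were called lower, where 7.47% of all probes tested were called higher and 6.73% lower. Fbn2, Fbln1, Emilin1 and the dimmer Fbln5 probe were not called. The same 7 probes had a lowest TAB value above the highest sham value, where 8.78% of all probes did. The median log2 difference of the member probes was 1.82, or 1.34 with Fbn2 set at the bound on its mean given below, whereas that of all probes was −0.05.

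**Figure D1:**
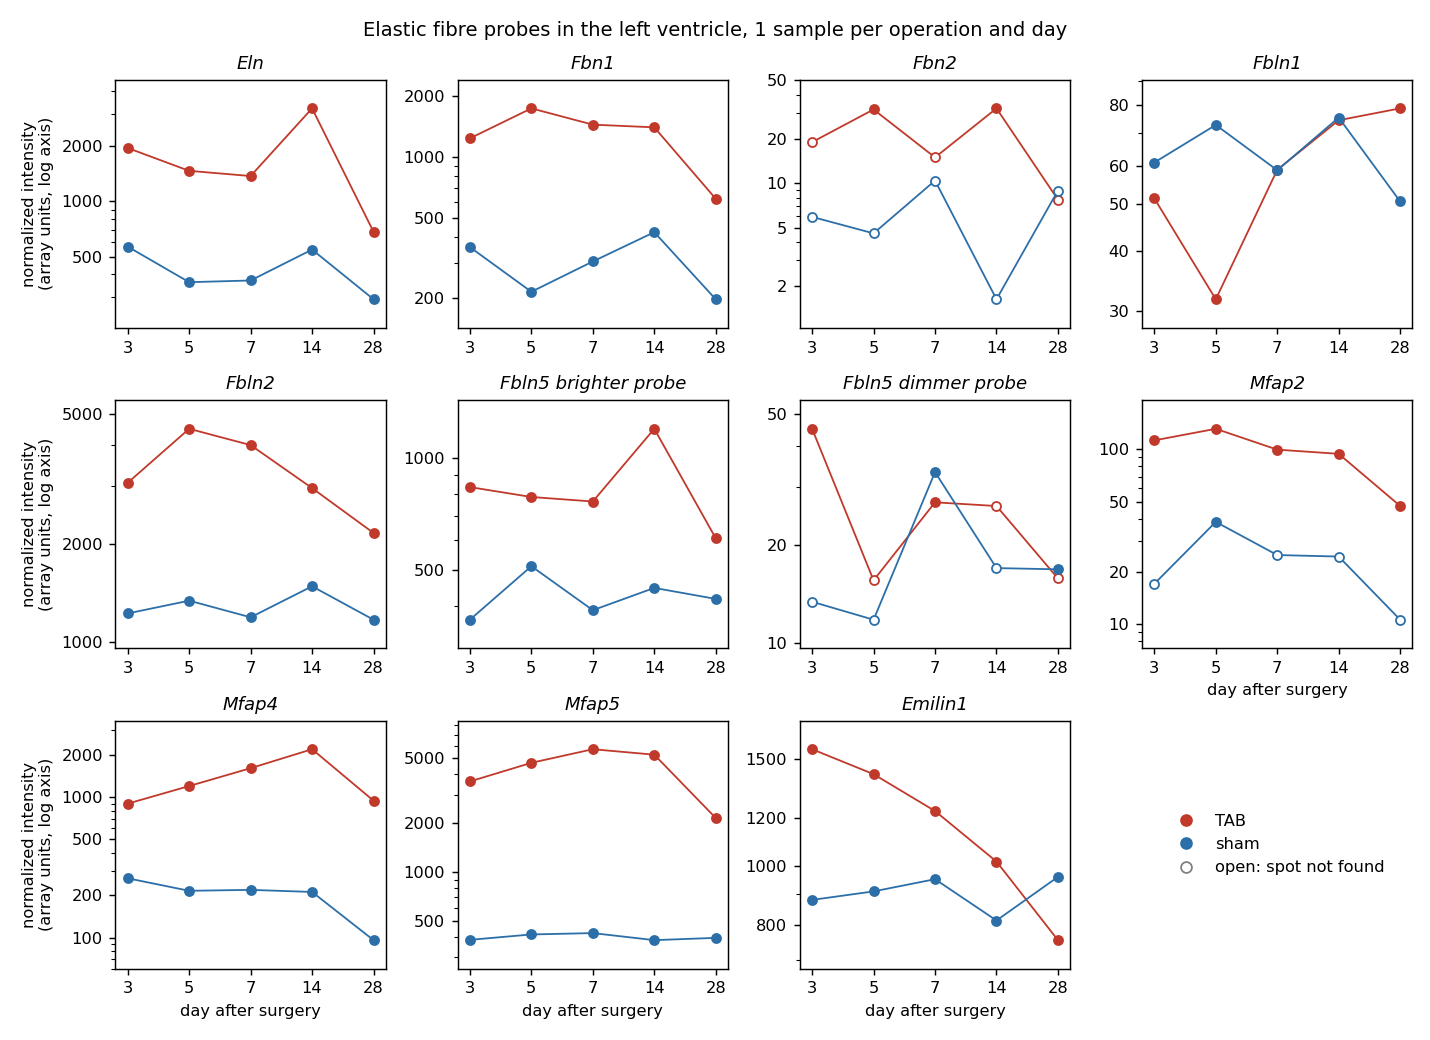
Normalized intensity (array units, log axis) of each elastic fibre probe against the day after surgery (days equally spaced), with TAB in red, sham in blue, 1 sample per point and open points for spots that were not found. The TAB line lay above the whole range of the sham samples for Eln, Fbn1, Fbln2, the brighter Fbln5 probe, Mfap2, Mfap4 and Mfap5, whereas the groups overlapped for Fbn2, Fbln1, the dimmer Fbln5 probe and Emilin1.

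The sequence before the transcription start is shown for 3 genes that were called higher and for Fbln1, which was not, because most members were higher in TAB. RefSeq (GRCm38.p6) promoter entries matched 6 member genes with 9 windows, namely Fbn1, Mfap2, Emilin1, Fbln2, Fbln5 and Fbln1, and Eln, Fbn2, Mfap4 and Mfap5 are not shown. The 200 bases printed for each lie outside the annotated span of the gene, run 5′ to 3′ on the strand of the gene and carry in capitals any match to the motifs searched on both strands.
Fbn1, chr2:125506486-125506685, minus strand: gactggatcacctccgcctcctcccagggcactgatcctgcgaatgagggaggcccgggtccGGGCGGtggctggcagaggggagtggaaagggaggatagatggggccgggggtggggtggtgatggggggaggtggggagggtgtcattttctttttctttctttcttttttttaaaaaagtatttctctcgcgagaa
Mfap2, chr4:141010224-141010423, plus strand: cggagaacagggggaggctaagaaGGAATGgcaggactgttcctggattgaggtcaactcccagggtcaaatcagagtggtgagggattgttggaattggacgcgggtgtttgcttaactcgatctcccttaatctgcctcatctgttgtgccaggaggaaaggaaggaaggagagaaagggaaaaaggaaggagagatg
Fbln5, chr12:101819120-101819319, minus strand: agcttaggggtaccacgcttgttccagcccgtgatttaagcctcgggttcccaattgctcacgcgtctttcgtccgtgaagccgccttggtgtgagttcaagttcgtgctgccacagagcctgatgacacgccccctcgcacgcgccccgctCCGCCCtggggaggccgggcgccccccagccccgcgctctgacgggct
Fbln1, chr15:85205749-85205948, plus strand: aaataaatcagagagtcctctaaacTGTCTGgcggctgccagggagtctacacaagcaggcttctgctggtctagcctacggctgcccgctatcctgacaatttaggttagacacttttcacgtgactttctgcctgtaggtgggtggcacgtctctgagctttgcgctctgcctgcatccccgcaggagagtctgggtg
The capitals mark a match to the Sp1 motif GGGCGG in Fbn1 and, read on the other strand, in Fbln5, a match to the TEAD motif GGAATG in Mfap2 and a match to the SMAD motif CAGACA, read on the other strand, in Fbln1. Over the 250 bases before the start, the Sp1 letters occurred in 5 of the 9 windows, 1 each of Fbn1, Mfap2, Fbln2, Fbln5 and Fbln1, and in 32.74% of all 32851 promoters. The SMAD letters, those of the factors that act downstream of TGF-beta, occurred in 5 windows, 1 each of Mfap2, Emilin1 and Fbln5 and both of Fbln1, which overlap and hold the same match, and in 17.13% of all promoters. The TEAD letters occurred in 1 window, of Mfap2, and in 12.64%. Mfap2, Fbln5 and Fbln1 have 2 windows each, so that a count of genes cannot be set beside a share of promoters. The AP-1 motif TGANTCA (6.749% of all promoters), the TATA box TATAAA (12.37%) and the CArG box (1.467%) had no match in the 9 windows. Each printed stretch holds 1 match, none of them overlaps another motif searched, and a match is a description of letters and not of binding. The called genes Fbn1, Fbln2, Mfap2 and Fbln5 thus shared the Sp1 letters with Fbln1, which was not called.

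Elastin, the core protein of the fibre, was measured by 1 probe that was found on all arrays. Its normalized intensity was 1956, 1468, 1375, 3218 and 683 in TAB and 567, 363, 370, 546 and 292 in sham, in the order of the 5 days. The groups did not overlap, but the TAB sample of day 28 was only 1.20-fold above the highest sham sample, that of day 3. The mean log2 difference was 1.90 (SE 0.20, n = 5 days, adjusted p = 0.0143 by limma). The log2 ratio was highest on day 14 (2.56) and lowest on day 28 (1.22), and the sham samples themselves spanned 1.94-fold.

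Fbn1 encodes fibrillin-1, the main fibrillin of the adult microfibril. Its normalized intensity was 1234, 1735, 1442, 1399 and 620 in TAB, against 358, 215, 304, 424 and 198 in sham. Every TAB sample was above every sham sample, and the gap was widest on day 5, where TAB was highest and sham was second lowest. The mean log2 difference of Fbn1 was 2.08 (SE 0.22, n = 5 days, adjusted p = 0.0143 by limma), with daily ratios from 1.65 (day 28) to 3.01 (day 5). Fbn2, which encodes the fibrillin known mainly from development, was near background. Its normalized intensity was 19, 31.7, 15.0, 32.3 and 7.75 in TAB and 5.92, 4.58, 10.4, 1.63 and 8.94 in sham, and the groups overlapped on day 28. The Fbn2 spot was found on the TAB arrays of days 5 and 14 and on 0 of the 5 sham arrays, and its mean log2 difference of 1.82 (SE 0.65) was not called (adjusted p = 0.110 by limma). Over the 5-day means TAB was at least 2.39-fold higher, where a sham spot that was not found was set no lower than the dimmest spot found on that array. This bound and those given below are on the mean and not on each day, and here 3 of the 5 TAB spots were not found either and the TAB value of day 28 was below that of sham. The mean log2 difference of Fbn2 was 0.33 with 50 units added and 1.20 without day 14.

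The 3 microfibril-associated genes were each called, and Mfap5 had the largest difference of all members. Mfap5 encodes MAGP-2, a small glycoprotein that binds fibrillin. In TAB its normalized intensity was 3611, 4701, 5699, 5275 and 2151, and in sham it was 383, 414, 422, 382 and 394. The sham samples of Mfap5 spanned only 1.11-fold, and the lowest TAB sample, that of day 28, was 5.10-fold above the highest sham sample. Its mean log2 difference was 3.35 (SE 0.22, n = 5 days, adjusted p = 0.00548 by limma), and its fold ranged from 5.46 on day 28 to 13.8 on day 14.

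Mfap4 encodes a fibrinogen-domain glycoprotein that binds both fibrillin and tropoelastin. TAB samples had 898, 1198, 1606, 2191 and 942 and sham samples 264, 215, 219, 211 and 95.8 units of normalized intensity. The TAB level of Mfap4 was higher on each day up to day 14 and lower again on day 28, and the sham sample of day 28 stood below the other sham samples. Its log2 ratio was 1.77, 2.48, 2.88, 3.37 and 3.30 on the 5 days, with a mean of 2.76 (SE 0.26, n = 5 days, adjusted p = 0.0139 by limma). Because the day 28 ratio was taken against that low sham sample, it stayed near the value of day 14 while the TAB intensity was 942 against 2191.

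Mfap2 encodes MAGP-1, the other small glycoprotein of the microfibril. Its normalized intensity was 113, 131, 99.7, 94.4 and 47.5 in TAB and 17, 38.5, 24.9, 24.4 and 10.6 in sham. The spot was found on all 5 TAB arrays but on only 1 of the 5 sham arrays, that of day 5, and there TAB was 3.41-fold higher. The mean log2 difference of Mfap2 was 2.12 (SE 0.16, n = 5 days, adjusted p = 0.00878 by limma) and fell to 0.99 with 50 units added to each intensity, where it was still called. Its ratio was the highest of its 5 days on day 3, at 2.73, and the lowest on day 5, at 1.77. The deposited detection p-value of the Mfap2 spot lay between 0.458 and 1.00 over the arrays, TAB arrays included.

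Among the fibulins, glycoproteins that bind elastin and fibrillin, Fbln2 and the brighter probe of Fbln5 were higher in TAB and Fbln1 was not. Fbln2 had 3072, 4491, 4005, 2959 and 2158 units in TAB and 1225, 1341, 1193, 1483 and 1172 units in sham, with no overlap. Its mean log2 difference was 1.34 (SE 0.17, n = 5 days, adjusted p = 0.0178 by limma), and the ratio was 1.74 and 1.75 on days 5 and 7 and 0.88 on day 28. Fbln5 encodes fibulin-5, which brings tropoelastin to the microfibril. Its brighter probe gave 837, 787, 765, 1203 and 608 units in TAB and 366, 511, 389, 447 and 417 units in sham. This probe did not overlap between the groups either, although TAB of day 28 was only 1.19-fold above sham of day 5, and its mean log2 difference was 0.95 (SE 0.16, n = 5 days, adjusted p = 0.0259 by limma).

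The dimmer Fbln5 probe gave 45.2, 15.6, 26.9, 26.3 and 15.8 units in TAB and 13.4, 11.8, 33.3, 17 and 16.8 units in sham. It was found on 2 of the 5 TAB arrays and 2 of the 5 sham arrays, and its mean log2 difference of 0.48 (SE 0.30) was not called (adjusted p = 0.322 by limma), and it was 0.16 without day 3 and 0.14 with 50 units added. Fbln5 therefore rests on the brighter probe, and the difference between its probes was not tested. Fbln1, an early-described fibulin of basement membranes and elastic fibres, was found on all arrays but was dim, with a deposited detection p-value between 0.276 and 1. Its normalized intensity was 51.3, 31.7, 58.9, 74.6 and 78.9 in TAB and 60.9, 72.9, 58.7, 75.5 and 50.6 in sham. The groups overlapped, and the mean log2 difference of −0.16 (SE 0.26, adjusted p = 0.697 by limma) took its sign from day 5, without which it was 0.09.

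Emilin1 encodes a glycoprotein of the interface between elastin and microfibril. TAB samples had 1559, 1418, 1233, 1018 and 756 units and sham samples 880, 909, 952, 814 and 960 units. The TAB level of Emilin1 was lower on each later day, and TAB over sham went from 1.77-fold on day 3 to 0.787-fold on day 28, while the sham samples spanned only 1.18-fold. Its mean log2 difference was 0.36 (SE 0.19, adjusted p = 0.225 by limma), so that TAB was above sham on 4 of 5 days but the average was not called.

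**Figure D2:**
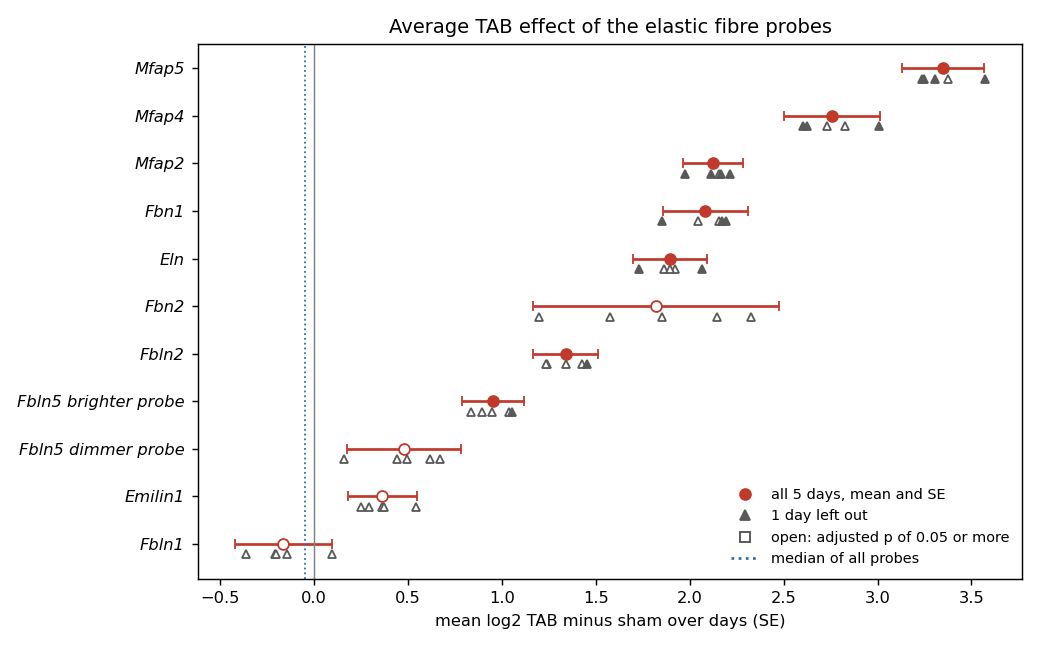
Mean log2 TAB minus sham over the 5 days of each elastic fibre probe (circles, bars show the SE) and the same mean with both samples of 1 day left out (triangles), where open symbols have an adjusted p of 0.05 or more and the dotted line is the median of all probes. The means ran from 3.35 for Mfap5 to −0.16 for Fbln1, and the 7 called probes stayed above 0 with any 1 day left out.

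On each single day between 4 and 6 of the 11 member probes were up-regulated past a threshold. A probe was past the threshold of a day when its log2 ratio was over 2 SDs of that day, taken over all probes, from 0. This is a description, because each day has 1 sample per operation and no test. The thresholds were 1.75, 1.87, 1.71, 1.46 and 1.38 in the order of the days. On day 3, 6 of the 11 member probes were past the threshold upwards, against 3.07% of all probes. On day 5 it was 5 (3.77% of all probes), on day 7 6 (3.71%), on day 14 6 (3.29%) and on day 28 4 (3.36%). Member probes were past the threshold downwards on none of the days, and 27 of the 55 ratios were past it upwards. This count was 16 with probes below 1 set to 1 in place of their removal and 35 with an absolute log2 ratio of at least 1 as the threshold on every day, which takes in the ratio of −1.20 of Fbln1 on day 5. That fixed threshold is below the threshold of each day. For these alternatives, and for ratios past the threshold downwards, the share of all probes was not counted. Fbn1, Mfap4 and Mfap5 were past the threshold of the day on all 5 days, whereas Eln missed it on day 28 and Mfap2 on day 5. Fbln2 passed it on day 7, Fbn2 on days 5 and 14, and the dimmer Fbln5 probe on day 3, while the brighter Fbln5 probe, Fbln1 and Emilin1 passed it on no day.

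**Figure D3:**
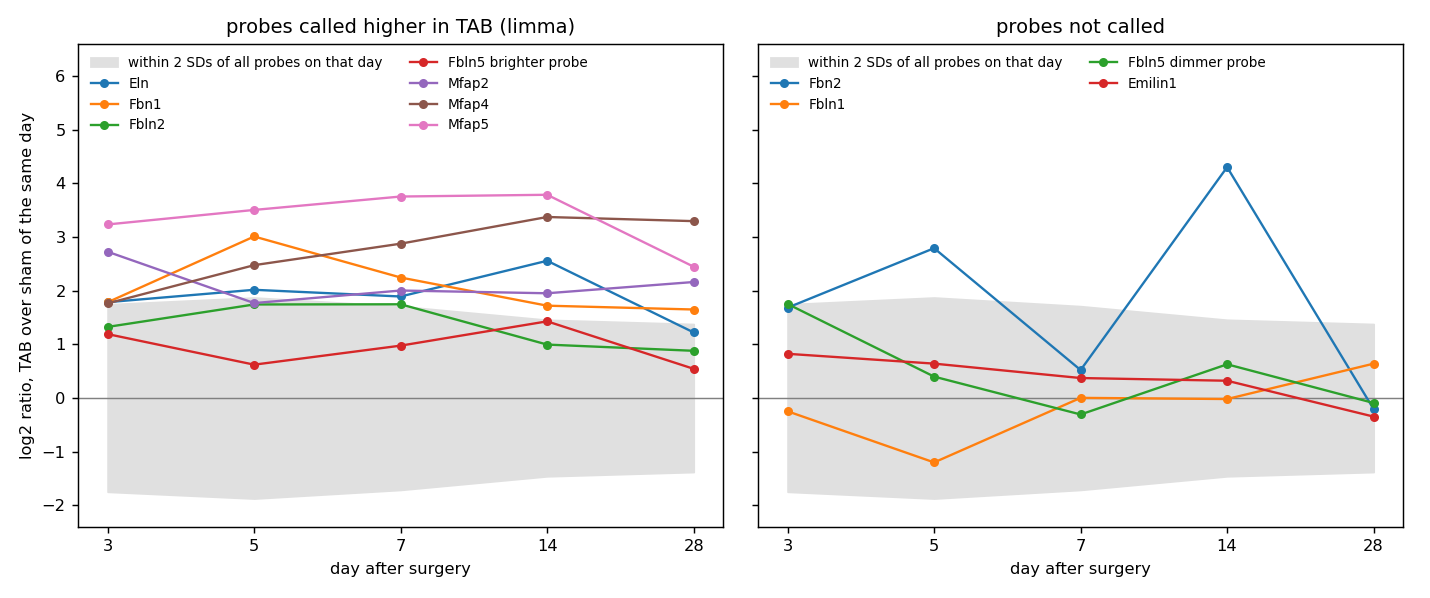
Log2 ratio of TAB over the sham sample of the same day for each elastic fibre probe against the day after surgery (days equally spaced), with the probes called by limma on the left, those not called on the right and the gray band at 2 SDs of all probes on that day. Mfap5 lay between 2.45 and 3.79 on all days, Mfap4 went from 1.77 to 3.37 by day 14, and the ratios of Fbln2 and Emilin1 were lower on day 28 (0.88 and −0.35) than on day 3 (1.33 and 0.82).

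The ratio was lowest on day 28 for Eln, Fbn1, Fbn2, Fbln2, the brighter Fbln5 probe, Mfap5 and Emilin1. The TAB effect of days 3 to 7 was set against that of days 14 and 28 in the same fit. No member probe was called for this difference (0 of 11), and 0% of all 19976 probes were called by limma, with 2086 at an unadjusted p under 0.05 and a lowest adjusted p of 0.227. Of the 11 member probes, 2 had an unadjusted p under 0.05. For Mfap4 early minus late was −0.96 (SE 0.37, unadjusted p = 0.0486, adjusted p = 0.476 by limma). Its day 28 ratio was taken against the low sham sample of that day, at 95.8 units. For Fbln2 early minus late was 0.67 (SE 0.23, unadjusted p = 0.0342, adjusted p = 0.452 by limma). For Eln the difference was 0.01 (SE 0.43) and for Fbn1 0.66 (SE 0.40), neither of which was called.

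The probes whose 5 daily log2 ratios were most like those of a member were sought among the 12654 probes found on all arrays, with the root mean square (RMS) difference of the log2 ratios as the measure. For Eln these were Bgn (0.144), a proteoglycan known to bind tropoelastin, Tmem119 (0.210), the fibril-associated collagen Col14a1 (0.252), Svep1 (0.280) and the proteoglycan Aspn (0.314). The ratios of Bgn were 2.04, 2.11, 1.90, 2.38 and 1.24 on the 5 days, beside 1.79, 2.02, 1.89, 2.56 and 1.22 for Eln. For Fbn1 they were the elastin cross-linking enzyme Loxl1 (0.237), the transcriptional repressor Tgif1 (0.277), the homeobox factor Meox1 (0.281), Emp1 (0.294) and Clec11a (0.297). Eln and Fbn1 were less alike, with an RMS difference of 0.632. All these ratios share their sham samples and rest on 5 days, so that the likeness is a description.

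Of the genes that assemble or modify elastic fibres, the lysyl oxidases, which cross-link elastin and collagen, had the highest median difference. The list held 24 genes with 29 probes, of which 13 were called higher and 1 lower, where 7.47% and 6.73% of all probes were (median log2 difference 0.60, beside −0.05 for all probes). Without day 3 only 13 of all probes were called, 2 of them members, so that not all of these calls held. Among the 9 probes of the 5 lysyl oxidases, 7 were called higher, with a median log2 difference of 2.47. Loxl1 was 4.75-fold higher (log2 2.25, SE 0.23, adjusted p = 0.0143 by limma), and the brighter probe of Loxl2 was 5.55-fold higher. Lox, the founding member of the family, was found on 5 of 5 TAB and 2 of 5 sham arrays with 1 probe, which gave a log2 difference of 4.55 (SE 0.66, adjusted p = 0.0205 by limma) from sham intensities between 9.34 and 39.5. Its other probe was found on 4 TAB arrays and no sham array and was at least 8.98-fold higher over the 5-day means. Loxl3 was found on all TAB arrays and no sham array and was at least 6.75-fold higher over those means. On the values as measured, spots not found included, that Lox probe had a log2 difference of 3.73 (adjusted p = 0.0159 by limma). Loxl3 had 3.31 (adjusted p = 0.00548 by limma), and the bounds themselves were not tested. Of the 3 Loxl4 probes only 1 was called, and the probes disagreed in sign, at 1.58, 0.60 and −0.48.

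The other partners were mixed. Of the latent TGF-beta binding proteins, Ltbp2 was 4.72-fold higher (adjusted p = 0.0152 by limma) and Ltbp3 2.30-fold higher (adjusted p = 0.0239), whereas Ltbp1 and Ltbp4 had log2 differences of 0.03 and −0.21 and were not called. Efemp2, which encodes fibulin-4, an adaptor that brings lysyl oxidase to elastin, was 2.56-fold higher (adjusted p = 0.0265), while its paralogue Efemp1 had a log2 difference of −1.18 with an adjusted p of 0.0657 by limma. Emilin2 was the only partner probe called lower, at −0.41 (SE 0.10, adjusted p = 0.0477). This call was lost without day 3, where 0 of all probes were called lower. Adamtsl2, a microfibril-binding protein, was 3.07-fold higher (adjusted p = 0.0240), and so were Fkbp10, a chaperone of tropoelastin and collagen, at 2.11-fold (adjusted p = 0.0313), and Bgn at 3.82-fold (adjusted p = 0.0139). Furin, Vtn, Adamts10, Adamtsl4, Thsd4, Fbln7, Emilin3, Mmrn1 and both Mmrn2 probes were not called.

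**Figure D4:**
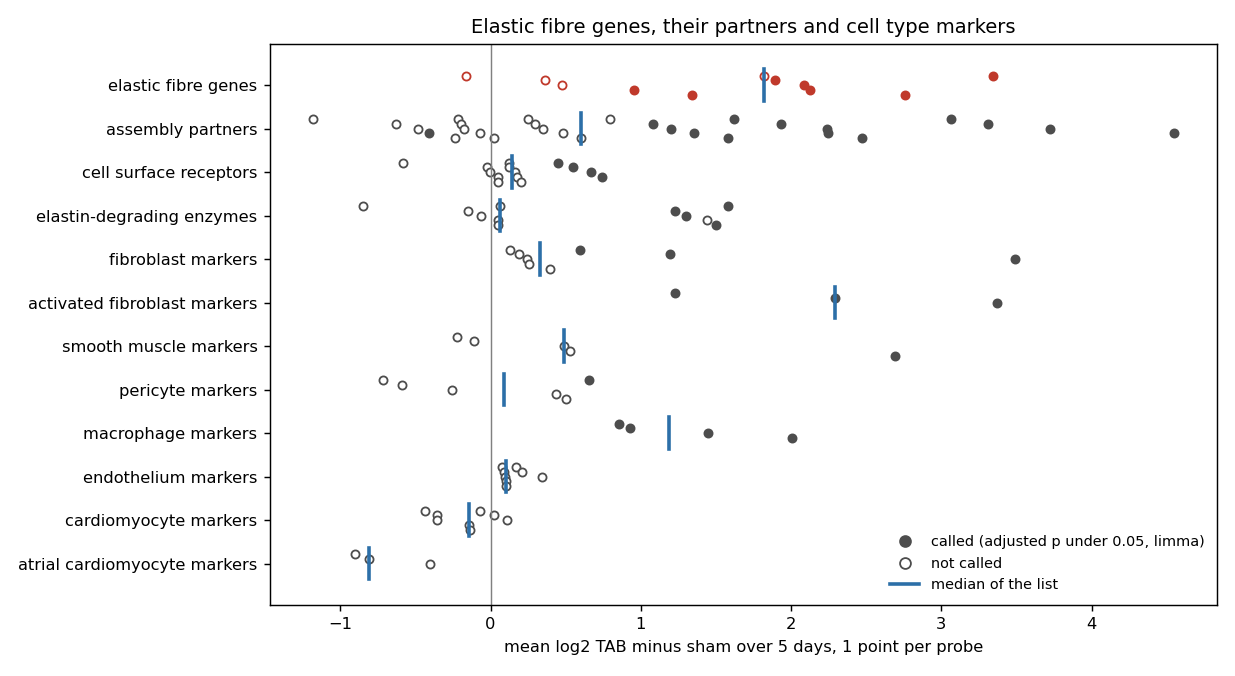
Mean log2 TAB minus sham over 5 days, 1 point per probe, for the elastic fibre genes (red), the listed assembly partners, cell surface receptors and elastin-degrading enzymes, and markers of 8 cell types, with filled points called by limma and blue bars at the list median. The median was 1.82 for the elastic fibre genes and 0.60 for their partners, and activated fibroblast (2.29) and macrophage (1.19) markers lay above 0 while cardiomyocyte markers (−0.14) did not.

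Markers of activated fibroblasts and macrophages were higher in TAB as well. In a bulk sample a change in the number of cells and a change in RNA per cell cannot be told apart. Beside the counts of markers below, 7.47% of all probes were called higher. Of the 4 markers of activated fibroblasts, Cthrc1 was left out by the filter on low values and the other 3 were called higher, namely Postn, at 10.4-fold, Meox1 and Fap. Their summed intensity was 7690 to 18146 in TAB and 1359 to 1543 in sham. Such a sum is compared only between samples, and its brightest probes weigh most in it. Of the general fibroblast list, 6 of 8 genes were kept (Pdgfra and Col1a1 were below 1 in at least 1 sample), and 3 of 8 probes were called higher, with sums of 52476 to 69068 in TAB and 46811 to 51525 in sham. The Dcn probes made up most of these sums, and without them they were 5748 to 9039 and 4629 to 5082. Within that list Tcf21, Dpt and both probes of Dcn, which mark fibroblasts at rest, had log2 differences of 0.13 to 0.26 and were not called, nor was 1 of the 2 Ddr2 probes (0.40). The probes called were the collagen gene Col1a2 (11.2-fold higher), the other Ddr2 probe (2.29-fold) and the proteoglycan Lum (1.51-fold). Of the 6 macrophage genes listed, 5 were on the array and 4 were kept, without Fcgr1 and Lyz2. All 4 probes kept were called higher, and their sums were 2278 to 5311 in TAB and 1519 to 1766 in sham. The part of these cells in the values of the elastic fibre genes was not tested.

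Smooth muscle markers, which bear on the vessel wall as a source of elastin, gave sums of 3896 to 5392 in TAB and 4406 to 5315 in sham. Of the 5 probes only Tagln was called higher, beside 7.47% of all probes. It was found on 4 TAB arrays and no sham array. Its normalized intensities were 14.4 to 73.0 in TAB and 3.62 to 11 in sham, and TAB was at least 4.31-fold higher over the 5-day means. The call is for the values as measured and not for this bound. Of the others, Acta2 (0.53), Myh11 (−0.11) and Smtn (−0.22) were found on all arrays and Lmod1 on none. The log2 ratio of Acta2 was 0.91, 1.27 and 1.22 on days 3 to 7 and −0.23 and −0.52 on days 14 and 28. Pericyte markers had 1 of 6 probes called higher and sums of 1911 to 3079 in TAB and 2992 to 3283 in sham. None of the 8 endothelial, 3 mesothelial and 8 cardiomyocyte probes was called, and the cardiomyocyte markers, which define the labelled tissue, were found on every array. Their sums were 248936 to 259467 in TAB and 256582 to 288899 in sham, and without Myl2, which was saturated on 9 of the 10 arrays, 183441 to 193968 and 191082 to 223400. Of the 3 blood markers only Alas2 had a probe under its symbol on the array. It had a log2 difference of 0.81 that was not called and sums of 386 to 806 in TAB and 273 to 354 in sham. The 3 atrial markers differed most on day 14, where the log2 ratio was −2.76 for Sln and −2.24 for Myl7, the day on which Eln, Fbn2, Mfap4, Mfap5 and the brighter Fbln5 probe had their highest ratio. Their sums were 2556 to 4760 in TAB and 4390 to 9973 in sham, and their part in the day 14 ratios was not tested. Without day 14 the mean log2 difference was 1.73 for Eln, 2.60 for Mfap4 and 3.24 for Mfap5, all called, whereas the brighter Fbln5 probe, at 0.83, and Fbn2, at 1.20, were not.

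Which members were called depended on the days that entered the fit. Without both samples of day 3, only Mfap2 and Mfap4 were called, without day 5 only Fbn1, Mfap2 and Mfap5, and without day 7 only Mfap5, while the count over all probes was 13, 35 and 23. The lists of partners, receptors, enzymes and markers were not followed probe by probe with a day left out, and their calls lie within these counts. Without day 14, Fbln2 (adjusted p = 0.0506 by limma) and the brighter Fbln5 probe (adjusted p = 0.0577) were lost and 184 of all probes were called. With any 1 day left out, the adjusted p of the 7 probes reached at most 0.0931, and the lowest mean log2 difference was 1.73 for Eln, 1.85 for Fbn1, 1.24 for Fbln2, 0.83 for the brighter Fbln5 probe, 1.97 for Mfap2, 2.60 for Mfap4 and 3.24 for Mfap5. The split of all called probes moved with the scaling. It was 1492 higher and 1344 lower as processed here, 1747 and 884 after median scaling alone, and 1856 and 979 after quantile normalization within each operation, and the same 7 member probes were called higher under each.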

How the data were processed

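Total RNA of the left ventricle was labelled with Cy5 and hybridized, 1 sample per array, to the Mouse Whole Genome OneArray. The authors deposited raw intensities, which had evidently been corrected for background (method not given in the sources used here) and not scaled between arrays. With them they deposited a detection p-value, used here for no call, and a flag. The deposited flag is of the unit other. What it means is not given, and below 0 it was taken as GenePix's mark for a spot it did not find. Intensities were scaled to equal medians. Removing the 6447 probes that fell below 1 on any array left 19976. Of these, every array showed 12654 and no array showed 2808. These were quantile normalized over the arrays to the median of each rank, and log2 was taken. No symbol is given for 3633 of all 26423 probes.

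The members and lists were chosen with earlier results of these data known. Named were all members, any genes of the lists of assembly partners, receptors, elastin-degrading enzymes and cell type markers, and the 5 probes most like Eln and Fbn1. Each probe was fitted on its own with limma (lmFit, eBayes, trend and robust off, two-sided) and the day as a block. The pairing comes from the day after surgery in the labels. Deviations from the group means correlated between the paired TAB and sham samples, across probes, at 0.112 (day 3), 0.00148 (day 5), 0.0466 (day 7), 0.0164 (day 14) and 0.0163 (day 28). Where a spot was found on no array of a group, the fold was given as a bound. Alternatives were other scalings, an added intensity, filters, probe choices, limma settings, no block, and each day left out. The fits were tested on simulated data. R 4.3.3 (limma 3.58.1) and Python 3.11.15 (numpy 2.4.6, pandas 2.3.3, matplotlib 3.10.9) were used. The miRNA arrays were not analysed here.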

Additional observations from a re-analysis of the deposited data

Results flagged for a closer look

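Mfap4 stood out for 1 sham sample. Its normalized intensity was 95.8 in the sham sample of day 28 and 211 to 264 in the other sham samples, and the gap to the nearest sham sample on the log2 scale made up 0.779 of the range of the group, above the critical value of 0.71 in Dixon's test for 5 samples. Of the 22 groups tested, 2 for each member probe, this was the only one, where chance gives about 1 in 20. Without day 28 the mean log2 difference of Mfap4 was 2.62 (adjusted p = 0.0177 by limma), beside 2.76 with all days.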

How the results depend on the processing

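The member probes called higher numbered 7 under 9 of the 11 alternatives that kept all days. The exceptions were probes below 1 set to 1, where 6 were called and the brighter Fbln5 probe was lost (adjusted p = 0.0623 by limma), and the fit without the replicate block for day, where Fbn2 was added (adjusted p = 0.0406) and 8 were called. With 1 day left out the count ranged from 1 to 7. The count over all probes, 2836 in the reported fit, was 4890 with 50 added, 4377 with the lowest tertile of probes left out, 371 with probes below 1 set to 1, 4522 with only probes found on all arrays of an operation, 4726 with trend and robust on and 3875 without the block, and ranged from 13 to 2773 with 1 day left out. The ratios past the threshold of a day fell from 27 to 16 with probes below 1 set to 1, where the share of all probes was not counted. Fbln1 ranged from −0.37 to 0.09 with 1 day left out and was above 0 only without day 5 (0.0947). The causes of these changes were not tested. The called members kept their direction under every alternative, and their mean log2 difference with 1 day left out ranged from 1.73 to 2.06 for Eln, 1.85 to 2.19 for Fbn1, 1.24 to 1.45 for Fbln2, 0.83 to 1.06 for the brighter Fbln5 probe, 1.97 to 2.21 for Mfap2, 2.60 to 3.01 for Mfap4 and 3.24 to 3.57 for Mfap5. Signal over background limits Fbn2, Fbln1, the dimmer Fbln5 probe and Mfap2.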

Other observations

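Of the enzymes known to degrade elastin, 4 of the 11 kept probes were called higher and 0 lower, beside 7.47% of all probes called higher. These were Mmp2, a gelatinase (2.83-fold, adjusted p = 0.0264 by limma), Mmp14, a membrane-bound protease that activates it (2.46-fold, adjusted p = 0.0265), cathepsin K (Ctsk, 2.99-fold, adjusted p = 0.0165) and the elastase Cela1 (2.34-fold, adjusted p = 0.0241). Mmp2 differed most on day 14, with a log2 ratio of 2.57, and least on day 3, with 0.80. Ctss, a cathepsin of macrophages, had ratios of 2.36 and 2.57 on days 5 and 7 and 0.34 on day 28 and was not called on average (adjusted p = 0.0511). Mmp12, the macrophage elastase, was found on 0 of 5 TAB and 3 of 5 sham arrays, and the neutrophil elastase Elane on none. The log2 difference of Mmp12, −0.85, was not called (adjusted p = 0.0968 by limma). Its groups overlapped, with 10.5 to 33.7 units in TAB and 21.4 to 41.0 in sham. Mmp7 and Ctsg were left out by the filter on low values.

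Of the receptors for elastic fibre proteins, 4 of 14 probes of 10 kept genes were called higher and 0 lower, beside 7.47% of all probes called higher, and the median log2 difference was 0.14. All 3 probes of the integrin subunit Itgb5 were called, at 1.46-fold, 1.59-fold and 1.67-fold, and 1 of 2 probes of Itgb1, the common integrin subunit of many matrix receptors, at 1.37-fold (adjusted p = 0.0403 by limma). Itgav, which pairs with Itgb5, had a log2 difference of 0.05 (SE 0.11) and was not called. Glb1, Neu1 and Ctsa of the elastin receptor complex were not called either, with differences of −0.02 to 0.20. Itgb8 was left out by the filter.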
